A study of Spodoptera frugiperda with 18 samples.

Results

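Eclosion is the moult in which the adult moth leaves the pupal case. It was followed in the fall armyworm, Spodoptera frugiperda, a noctuid moth whose caterpillars damage maize and other crops, by setting adults of day 1 against pupae of day 7, the oldest pupae sampled. The labels gave these libraries by age and sex: 1 female and 1 male library of adult day 1, and 1 female and 1 male library of pupa day 7, which are 4 of the 18 small RNA libraries of the series. No strain, treatment or dissected tissue was named in the labels, and they did not say how many insects went into a library. Each age was given by its female and its male library, so n = 2 per age. In a fit with terms for age and sex, p-values rest on how far the sex difference varied between ages. This spread mixes technical variation with sex-specific change over age, and 1 library per sex and age cannot separate them. The other pupal and adult libraries (female and male pupae of days 1 and 4, female and male adults of day 4) entered the fit to estimate that spread, 10 libraries in all. In RNA from mixed tissues, fewer cells of a type and less of a miRNA per cell cannot be told apart.

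A miRNA is a small RNA, cut as a pair of arms (5p and 3p) from a hairpin precursor, that guides a silencing complex to messenger RNAs. Pairing rests mainly on the seed, bases 2 to 8 from the 5′ end, so miRNAs with the same seed can share targets. In the last days of the pupa the adult body is completed inside the case, with its flight muscles, wings, sensory organs and cuticle, under falling levels of the steroid hormone ecdysone. Several miRNAs are known for roles in such transitions in other insects: let-7 and miR-100 in the timing of metamorphosis and miR-34 in ageing and hormone response in Drosophila, and miR-281 and miR-263 in ecdysone signalling and moulting in silkworm and locust.

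The sequences on which the results turn are shown as the authors' deposited table lists them, 5′ to 3′, with T in place of U and the seed in capitals. The first 4 belong to the miRNAs that rose at eclosion, followed by the abundant miR-277 and by the shorter partners of miR-317-y and miR-281-x.
sfr-miR-317-5p: gGGTGCCAcgctgtgctctct
sfr-miR-34-5p: tGGCAGTGtggttagctggttgt
miR-317-y: tGAACACAgctggtggtatctcagt
miR-281-x: aAGAGAGCtatccgtcgacagtaa
sfr-miR-277-3p: tAAATGCActatctggtacgaca
sfr-miR-317-3p: tGAACACAgctggtggtatct
sfr-miR-281-5p: aAGAGAGCtatccgtcgacagt
The next set fell at eclosion, apart from sfr-miR-2c-3p and let-7-x, which are shown because they belong to the same or a better-known family and were lower in both adult libraries without passing the test.
miR-305-x: aTTGTACTtcatcaggtgctctgg
miR-305-y: aGGCGCTTgttggagtacactt
miR-263-x: aATGGCACtggaagaattcacgg
miR-263-z: aATGGCACtggaagaattcacggga
miR-71-y: tCTCACTAccttgtctttcatg
sfr-miR-13b-3p: tATCACAGccatttttgacgagtt
sfr-miR-2c-3p: tATCACAGccagctttgttgact
sfr-miR-6094-3p: tATTCGAGacctctgctgatcct
let-7-x: tGAGGTAGtaggttgtatag
Names that begin with sfr- are species names. Names that end in -x, -y or -z are family names, and a row's sequence rather than its letter is its identity. miR-317-y is sfr-miR-317-3p with 4 more bases at the 3′ end, and miR-263-z is miR-263-x with 2 more, so the counts within such a pair depend on how reads were assigned to near copies. Positions in the genome were not analysed here.

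The merged table held 660 miRNA rows. Totals were 2088442 and 2717745 counts in the female and male adults, against 3473742 and 418883 counts in the female and male pupae, so a count of 3 stood for 1.57 and 1.28 CPM (library-size-scaled counts, with TMM factors) in the adults and for 1.16 and 7.64 CPM in the pupae. The male pupa of day 7 was the shallowest of the 10 libraries. It and the male pupa of day 4 also held 5 short rows at 5 or more times the level of any of the other 8 libraries, described at the end. The sex labels matched miR-989-z, a miRNA of ovarian follicle cells in Drosophila, which stood at 5168 and 1.71 CPM in the female and male adults and at 711 and 20.4 CPM in the female and male pupae.

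At eclosion sfr-miR-317-5p, sfr-miR-34-5p, miR-317-y and miR-281-x rose, and rows of miR-263, miR-305, miR-71, miR-13b and miR-6094 fell. edgeR's quasi-likelihood test called 13 of 344 tested miRNAs at an adjusted p of 0.05 (3.78%). Of these, 4 rose (1.16%) and 9 fell (2.62%) in adults of day 1. Both adult libraries lay above both pupal libraries for 104 of the 344 miRNAs (30.2%) and below both for 72 (20.9%), so groups that do not overlap were common. In this fit 83 miRNAs had an unadjusted p under 0.05. The split of the calls moved with the scaling: 14 were higher and 18 lower with DESeq2's size factors, and 22 higher and 16 lower with library totals, each time with all 13 among them.

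**Figure D1:**
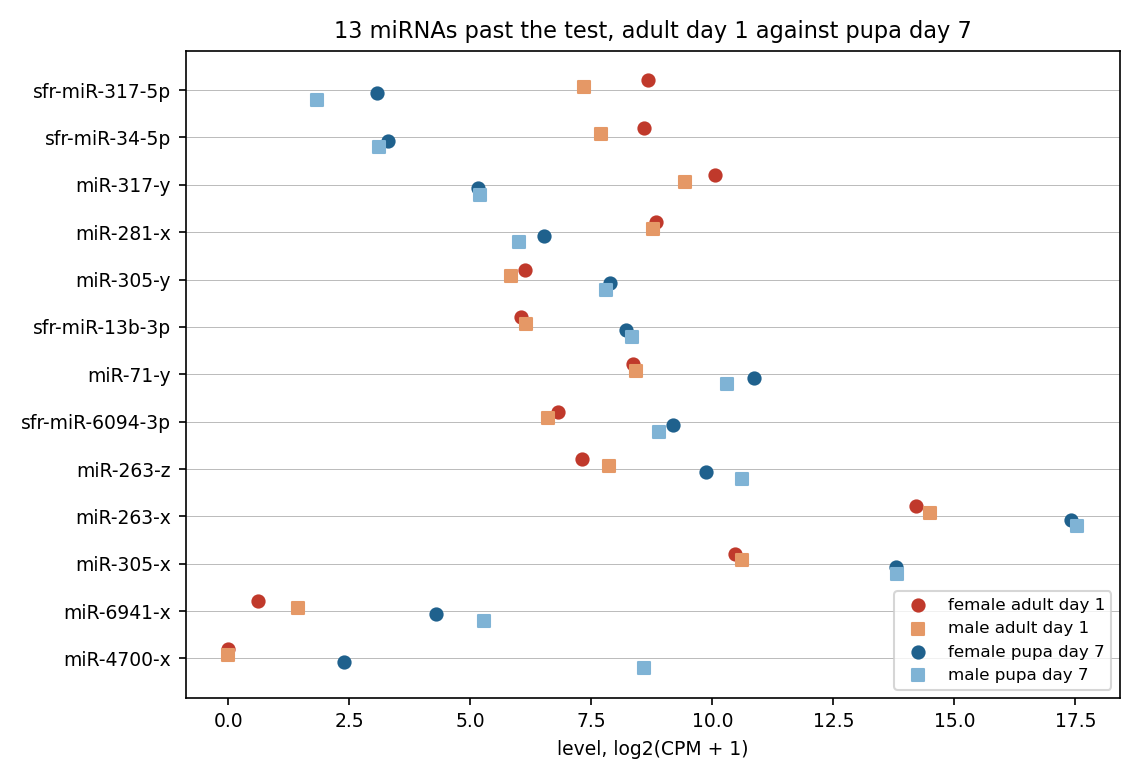
Levels of the 13 miRNAs past edgeR's test, as log2 of CPM + 1, in the 4 libraries. Red and orange stand for the female and male adults of day 1, dark and light blue for the female and male pupae of day 7; for every row both adult points lie on one side of both pupal points, and miR-263-x is the most abundant of the 13 in all 4 libraries.

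The number of calls depended on single libraries. Without the female or the male pupa of day 7 it was 0, with a smallest adjusted p in edgeR of 0.0553 and 0.0588 and with 72 and 52 miRNAs at an unadjusted p under 0.05. Without the female or the male adult of day 1, 3 calls were left in each fit, and they were the same 3, miR-317-y, sfr-miR-34-5p and sfr-miR-317-5p. Leaving out a day 4 adult raised it to 70 (female) or 61 (male), and leaving out the female pupa of day 1, the male pupa of day 1 or a pupa of day 4 of either sex gave 8, 20, 7 and 7. No alternative turned the direction of any of the 13.

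The 3 largest increases among the calls were in arms of the cluster that holds miR-277, miR-317 and miR-34 in Drosophila. sfr-miR-317-5p stood at 406 and 161 CPM in the female and male adults, against 7.37 and 2.55 CPM in the female and male pupae, of which the last is a single read. It rose by 5.61 on the log2 scale (SE 0.63, edgeR adjusted p = 0.00473). The male ratio alone was 63.3, with an exact 95% counting interval of 11.3 to 2505. The female ratio, from 19 pupal reads, was 55.2 with an interval of 35.1 to 92.1.

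sfr-miR-34-5p, whose family answers to ecdysone and juvenile hormone in Drosophila, stood at 383 and 206 CPM in the female and male adults, against 8.92 and 7.64 CPM in the female and male pupae. Both adults were far above both pupae, and the log2 change was 5.08 (SE 0.56, edgeR adjusted p = 0.00473). The pupal levels rest on 23 reads in the female and 3 in the male, and the male ratio of 27.0 had an exact 95% counting interval of 9.19 to 131.5. Its partner sfr-miR-34-3p stood at 77.0 and 57.8 CPM in the adults, against 14.3 and 0 CPM in the pupae, and did not pass the test (log2 change 2.91, edgeR adjusted p = 0.136).

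miR-317-y, the longer form of the miR-317 3p arm, stood at 1060 and 695 CPM in the female and male adults, against 34.9 and 35.6 CPM in the female and male pupae. It rose by 4.62 (log2, SE 0.48, edgeR adjusted p = 0.00473). The shorter sfr-miR-317-3p was also higher in both adults, at 634 and 288 CPM against 156 and 115 CPM in the pupae. Its log2 change of 1.69 (SE 0.39) did not pass the test (edgeR adjusted p = 0.0688).

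The most abundant member, sfr-miR-277-3p, controls the breakdown of branched-chain amino acids in Drosophila. It stood at 85240.5 and 105139 CPM in the female and male adults, against 27284 and 14656 CPM in the female and male pupae. The groups did not overlap, but the log2 change of 2.20 (SE 0.55) did not pass the test (edgeR adjusted p = 0.0688). The related row miR-277-y, with the same seed, stood at 520 and 795 CPM in the adults, against 105 and 45.8 CPM in the pupae (log2 change 3.14, edgeR adjusted p = 0.0688). The 9 tested rows of the cluster list are arms and forms of 3 miRNAs and so share sources. Of these rows, 3 were called higher, against 1.16% of all tested miRNAs, and 0 lower. All 9 had a positive log2 change, against 176 of all 344 tested miRNAs. Both adults lay above both pupae in 8, against 30.2% of all tested miRNAs. The median log2 change was 3.03, against 0.039 over all tested miRNAs. The row outside this pattern was sfr-miR-277-5p, at 44.0 and 24.4 CPM in the adults and 50.4 and 12.7 CPM in the pupae.

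The time courses set this step beside the other days. miR-317-y was lower in pupae of day 7 than in pupae of days 1 and 4 in both sexes (210 and 384 CPM on day 1, 216 and 150 CPM on day 4, female and male), and after 1060 and 695 CPM in adults of day 1 it stood at 2693 and 2527 CPM in adults of day 4. sfr-miR-34-5p was also lowest in pupae of day 7 and highest in adults of day 4, at 921 and 1208 CPM. It was already low earlier, with 40.9 and 42.0 CPM in pupae of day 1 and 11.2 and 15.2 CPM in pupae of day 4. Its male level on pupal day 7 rests on 3 reads. sfr-miR-277-3p differed, because it was already higher in pupae of day 7 than in those of day 4, which held 6109 and 2517 CPM.

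**Figure D2:**
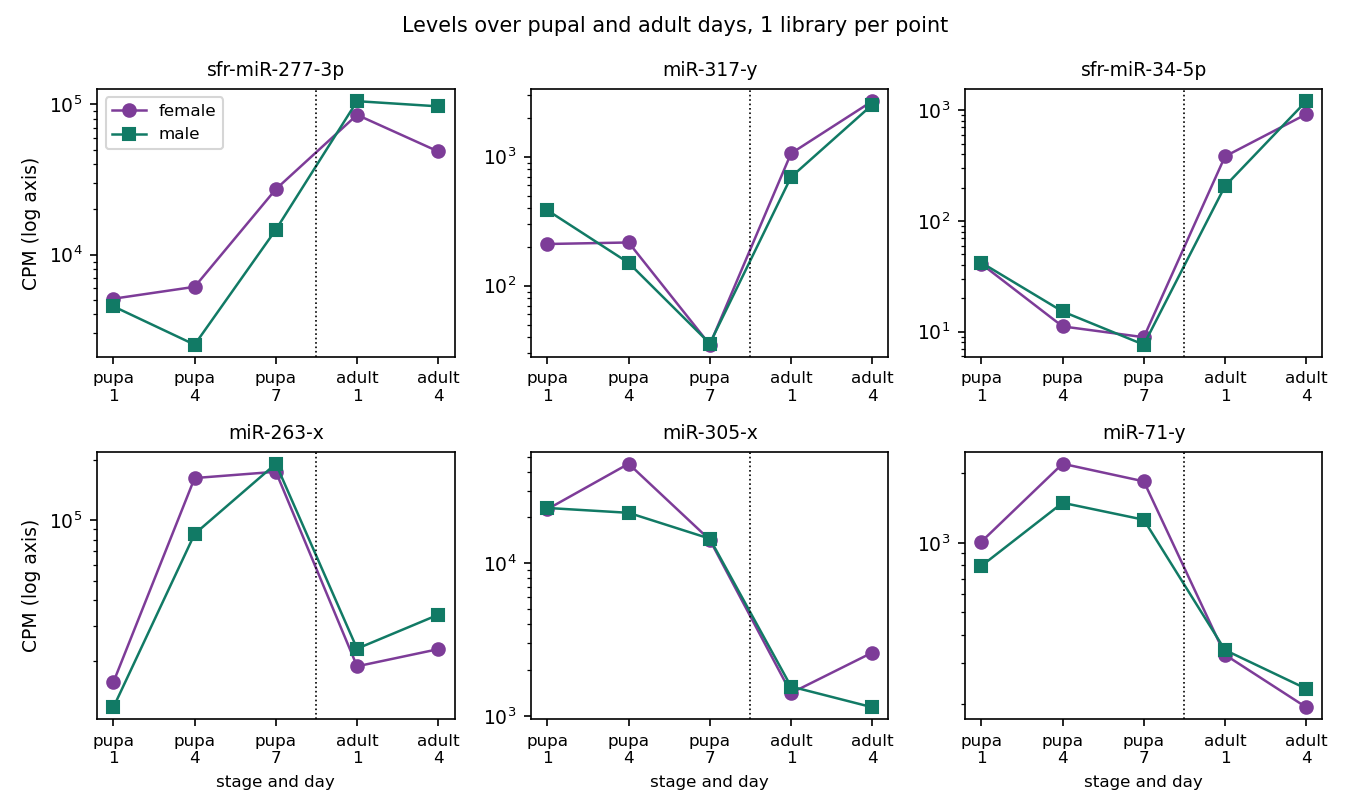
Levels in CPM on a log axis from pupal day 1 to adult day 4, 1 library per point, circles for females and squares for males; the dotted line marks eclosion. The miR-317 and miR-34 rows have their lowest level in pupae of day 7, and miR-263-x is high on pupal days 4 and 7 alone. The male miR-34 point of pupal day 7 rests on 3 reads.

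The list of miRNAs linked to moulting and ecdysone held miR-281 beside miR-34. In the silkworm miR-281 targets the ecdysone receptor. miR-281-x stood at 457 and 435 CPM in the female and male adults, against 90.7 and 63.6 CPM in the female and male pupae, and rose by 2.50 (log2, SE 0.45, edgeR adjusted p = 0.0276). The main 5p row with the same seed, sfr-miR-281-5p, was higher in both adults, at 18958 and 15391 CPM against 8862 and 5522 CPM in the pupae. Its log2 change of 1.25 did not pass the test (edgeR adjusted p = 0.104).

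Of the 15 tested rows of the moulting and ecdysone list, 2 were called higher (miR-281-x and sfr-miR-34-5p), against 1.16% of all tested miRNAs, and 0 lower. Both adults lay above both pupae in 7, against 30.2% of all tested miRNAs, and below both in 2, against 20.9%, and the median log2 change was 0.74, against 0.039 over all tested miRNAs. let-7-x was lower in both adults, at 13631 and 12689 CPM against 48211 and 28958.5 CPM in the pupae (log2 change -1.54, edgeR adjusted p = 0.0792). let-7 is the temporal regulator that is switched on at metamorphosis in Drosophila. miR-100-x, made with let-7 from one transcript in Drosophila and the most abundant miRNA here, was lower in both adults without passing the test, at 176354 and 192433 CPM in the adults, against 281212 and 207686 CPM in the pupae (log2 change -0.42, edgeR adjusted p = 0.658). In the let-7 complex list of 7 tested rows, 0 were called at adjusted p 0.05 in edgeR, against 3.78% of all tested miRNAs. Of its log2 changes 6 of 7 were negative, against 168 of all 344 tested miRNAs. These rows are arms and forms of let-7, miR-100 and miR-125 and so share sources.

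The fall was led by miR-263-x, which protects sensory bristle cells in Drosophila and acts in moulting in locusts. It stood at 18864.5 and 23072 CPM in the female and male adults, against 173953 and 190599 CPM in the female and male pupae, where only miR-100-x was higher. It fell by 3.12 on the log2 scale (SE 0.39, edgeR adjusted p = 0.00597). The female and male pupae stood 9.22 and 8.26 times above the adults of their sex. The longer form miR-263-z fell too, to 157 and 234 CPM in the adults, against 934 and 1555 CPM in the pupae (log2 change -2.66, edgeR adjusted p = 0.0197). All 4 tested rows with the seed ATGGCAC were negative, from -3.12 to -2.45, and 2 of them were called. The other two are miR-228-x and miR-183-z, family names whose rows could share reads with miR-263. sfr-miR-263b-5p, the related miRNA with the seed TTGGCAC, was lower in both adults, at 2598 and 2229 CPM against 6436 and 4511 CPM in the pupae, without passing the test (log2 change -1.20, edgeR adjusted p = 0.180).

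miR-305-x, which acts in intestinal stem cells in Drosophila, stood at 1412 and 1557 CPM in the female and male adults, against 14253 and 14514 CPM in the female and male pupae. It had the largest fall among called miRNAs of at least 100 CPM, a log2 change of -3.27 (SE 0.41, edgeR adjusted p = 0.00597). The opposite arm miR-305-y fell to 69.1 and 56.5 CPM in the adults, against 235 and 224 CPM in the pupae (log2 change -1.88, edgeR adjusted p = 0.0384). miR-275-y, from the same cluster in Drosophila and required for blood digestion and egg development in mosquitoes, had closely similar levels, 3402 and 2872 CPM in the adults and 3396 and 3495 CPM in the pupae. Its log2 change was -0.15 (edgeR adjusted p = 0.854). The difference between the changes of miR-305 and miR-275 was not tested. Over the 5 tested rows of the list, 2 were called lower, against 2.62% of all tested miRNAs, and 0 higher, and the median log2 change was -1.51, against 0.039.

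The miR-71 and miR-2 cluster, whose miR-2 and miR-13 members repress pro-apoptotic genes in Drosophila, was lower in adults in nearly all its rows. miR-71-y, which acts on chitin synthesis in locust moulting, stood at 327 and 343 CPM in the female and male adults, against 1849 and 1260 CPM in the female and male pupae (log2 change -2.21, SE 0.39, edgeR adjusted p = 0.0260). sfr-miR-13b-3p stood at 65.5 and 70.2 CPM in the adults, against 297 and 323 CPM in the pupae (log2 change -2.20, SE 0.38, edgeR adjusted p = 0.0260). These were the 2 called rows of 12 tested, against 2.62% called lower overall. Both adults lay below both pupae in 11 of the 12, against 20.9% of all tested miRNAs, and the median log2 change was -1.50. The most abundant rows did not pass the test: sfr-miR-2a-3p stood at 6455 and 6287 CPM in the adults, against 15749 and 13674 CPM in the pupae (edgeR adjusted p = 0.0803), and sfr-miR-2c-3p at 2840 and 2956 CPM in the adults, against 8492 and 7510 CPM in the pupae (edgeR adjusted p = 0.0688). sfr-miR-2c-3p and sfr-miR-13b-3p share the seed ATCACAG, and sfr-miR-2a-3p (seed CACAGCC) is a near copy of sfr-miR-2b-3p, so reads may be split among near copies, and the rows are not independent. The exception was sfr-miR-13a-5p, a row below 10 CPM, with a log2 change of 1.41.

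sfr-miR-6094-3p, a miRNA known from Lepidoptera, stood at 112 and 95.9 CPM in the female and male adults, against 579 and 474 CPM in the female and male pupae (log2 change -2.36, SE 0.39, edgeR adjusted p = 0.0230). Its decrease began earlier, since it stood at 17778 and 18812 CPM in pupae of day 1 and at 1319 and 1331 CPM in pupae of day 4. It was the only call among 55 tested rows of the Lepidoptera list, against 3.78% called of all tested miRNAs. The median log2 change of that list was 0.20. miR-305-x was likewise higher on earlier pupal days, with 22652 and 23072 CPM on day 1 and 44972 and 21445 CPM on day 4. miR-263-x had a different course, with 15754 and 11819 CPM on pupal day 1 and 161894 and 85525 CPM on day 4, so its level in adults of day 1 was nearer to that of the youngest pupae than to that of the oldest. miR-71-y had 1012 and 794 CPM on pupal day 1 and 2204 and 1493 CPM on day 4.

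Named miRNAs were 12 per direction, 24 in all, with at least 100 CPM over the 4 libraries. Called miRNAs were taken first. The largest log2 changes among rows whose adult and pupal libraries did not overlap filled the rest. The 11 that passed the test were thus among the 24 by the rule, and their share is not a pass rate. Among the named miRNAs that did not pass, sfr-miR-375-3p had the largest positive change, with 57.1 and 1315 CPM in the female and male adults, against 1.94 and 12.7 CPM in the female and male pupae (log2 change 5.86, SE 1.51, edgeR adjusted p = 0.0792). The male adult stood far above the other 3 libraries. miR-282-x stood at 202 and 162 CPM in the adults, against 38.8 and 15.3 CPM in the pupae (edgeR adjusted p = 0.0598). miR-10018-x stood at 1496 and 1213 CPM in the adults, against 402 and 227 CPM in the pupae (edgeR adjusted p = 0.124). Both had groups that did not overlap.

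On the low side, miR-137-y, a neuronal miRNA, stood at 245 and 209 CPM in the adults, against 836 and 362 CPM in the pupae (log2 change -1.34, edgeR adjusted p = 0.180). sfr-miR-307-3p stood at 141 and 168 CPM in the adults, against 436 and 313 CPM in the pupae (log2 change -1.31, edgeR adjusted p = 0.190). 2 predicted rows, m0042-3p and m0005-5p, were higher in both adults, but mostly in the female: m0042-3p stood at 317 and 69.0 CPM in the female and male adults, against 24.4 and 22.9 CPM in the pupae, and m0005-5p at 3308 and 571 CPM, against 414 and 331 CPM.

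The other lists held few or no calls. Of all tested miRNAs 3.78% were called, so 0 calls in lists this short say little about their members. In the neuronal and sensory list, 2 of 17 tested rows were called lower, against 2.62% of all tested miRNAs. Both are forms of miR-263, and the median log2 change of the list was -0.087. miR-124-y, a marker of neurons, stood at 50.8 and 56.1 CPM in the adults and at 77.6 and 58.6 CPM in the pupae. miR-276-y, at 111031 and 124542 CPM in the adults and 137369 and 96351 CPM in the pupae, had a log2 change of 0.03. The muscle list had 0 calls of 4 tested rows in edgeR, where miR-1-y stood at 51499 and 61454 CPM in the adults, against 47777 and 27686 CPM in the pupae (edgeR adjusted p = 0.508), and miR-133-z at 524 and 620 CPM in the adults, against 458 and 145 CPM in the pupae.

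Growth and fat metabolism miRNAs likewise had 0 calls in edgeR, of 11 tested rows. bantam-y, which promotes growth and blocks apoptosis in Drosophila, stood at 162787 and 180891 CPM in the adults, against 124402 and 92820 CPM in the pupae (log2 change 0.66, edgeR adjusted p = 0.251). sfr-miR-14-3p, linked to fat metabolism and ecdysone signalling in Drosophila, was higher in both adults, at 5840 and 6682 CPM against 3565 and 1260 CPM in the pupae (log2 change 1.40, edgeR adjusted p = 0.209). Of the Hox cluster list, 0 of 12 tested rows were called, and 6 log2 changes were positive and 6 negative. sfr-miR-10-5p held nearly the same level throughout, with 40262 and 44512 CPM in the adults and 46936 and 40837 CPM in the pupae.

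In the miR-9 cluster list, 0 of 7 tested rows were called. miR-9-z, of a family that acts in sensory organs and wings in Drosophila, stood at 6049 and 6094 CPM in the adults, against 14383 and 14338 CPM in the pupae (log2 change -1.25, edgeR adjusted p = 0.0688). miR-279-y, which shapes the carbon dioxide sensing neurons in Drosophila, stood at 17998 and 19345 CPM in the adults, against 9162 and 5764 CPM in the pupae (log2 change 1.33, edgeR adjusted p = 0.0688). The miR-193 list, with a miRNA that sets dark wing pattern in butterflies, had 0 calls, and miR-193-y stood at 144 and 121 CPM in the adults, against 372 and 229 CPM in the pupae. There were also 0 edgeR calls in the miR-12 list (4 tested), the miR-750 list (5), the miR-11 and miR-998 list (6), the embryo list (7), the ovary and germline list (4) and the list of rows high in males (4). All these counts stand beside 3.78% called of all tested miRNAs.

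**Figure D3:**
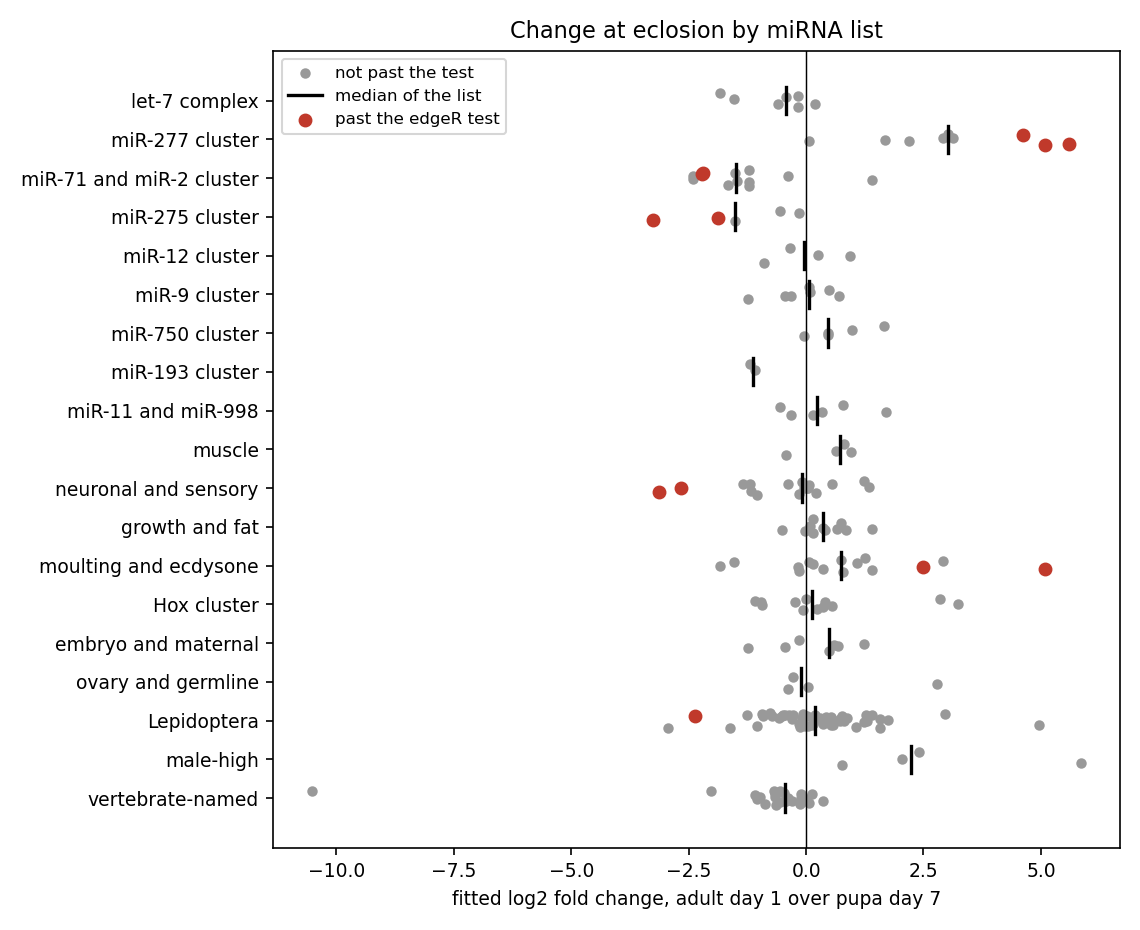
Fitted log2 fold change, adults of day 1 over pupae of day 7, for the tested rows of each list, 1 point per row; red points passed edgeR's test and black bars are list medians. The miR-277 cluster lies wholly at or above 0, and the miR-71 and miR-2 cluster lies below 0 but for 1 row.

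Many rows differ from another row only by a longer 3′ end, and the balance of some such pairs also differed between the ages. Of 35 pairs with at least 50 reads in each of the 4 libraries, the longer form had a higher share in both adults than in both pupae in 19, a lower share in 5, and overlapping shares in 11. Some pairs share a row, such as those among miR-99-x, miR-100-x and miR-100-z, so the pairs are not independent. Some of the 19 differed little. bantam-y made up 99.09 and 99.2% of its pair with miR-81-z in the adults, against 98.93 and 99.08% in the pupae. For miR-998-z the exact 95% intervals of the ages overlapped. The largest difference was in the miR-317 3p arm, where miR-317-y made up 62.5% of the pair in the female adult (exact 95% interval 60.9 to 64.2%) and 70.7% in the male adult (68.8 to 72.6%), against 18.3% in the female pupa (15.0 to 22.0%) and 23.7% in the male pupa (13.6 to 36.6%). The last of these rests on 59 reads. In the female and male adults of day 4 the share was lower again, at 34.8 and 50.35%. It was 19.7 and 29.9% in pupae of day 1 and 28.9 and 34.05% in pupae of day 4. The intervals cover counting error only, and the reads carried no molecular identifiers as far as the labels say.

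miR-281-x made up 2.35 and 2.75% of its pair in the female and male adults, against 1.01 and 1.14% in the female and male pupae. miR-10482-x made up 21.5 and 24.7% in the adults, against 13.2 and 14.3% in the pupae. The opposite held for miR-12-z, at 44.6 and 56.2% in the adults, against 67.1 and 87.1% in the pupae. miR-8-z differed little, at 41.3 and 42.0% in the adults, against 44.2 and 44.8% in the pupae.

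**Figure D4:**
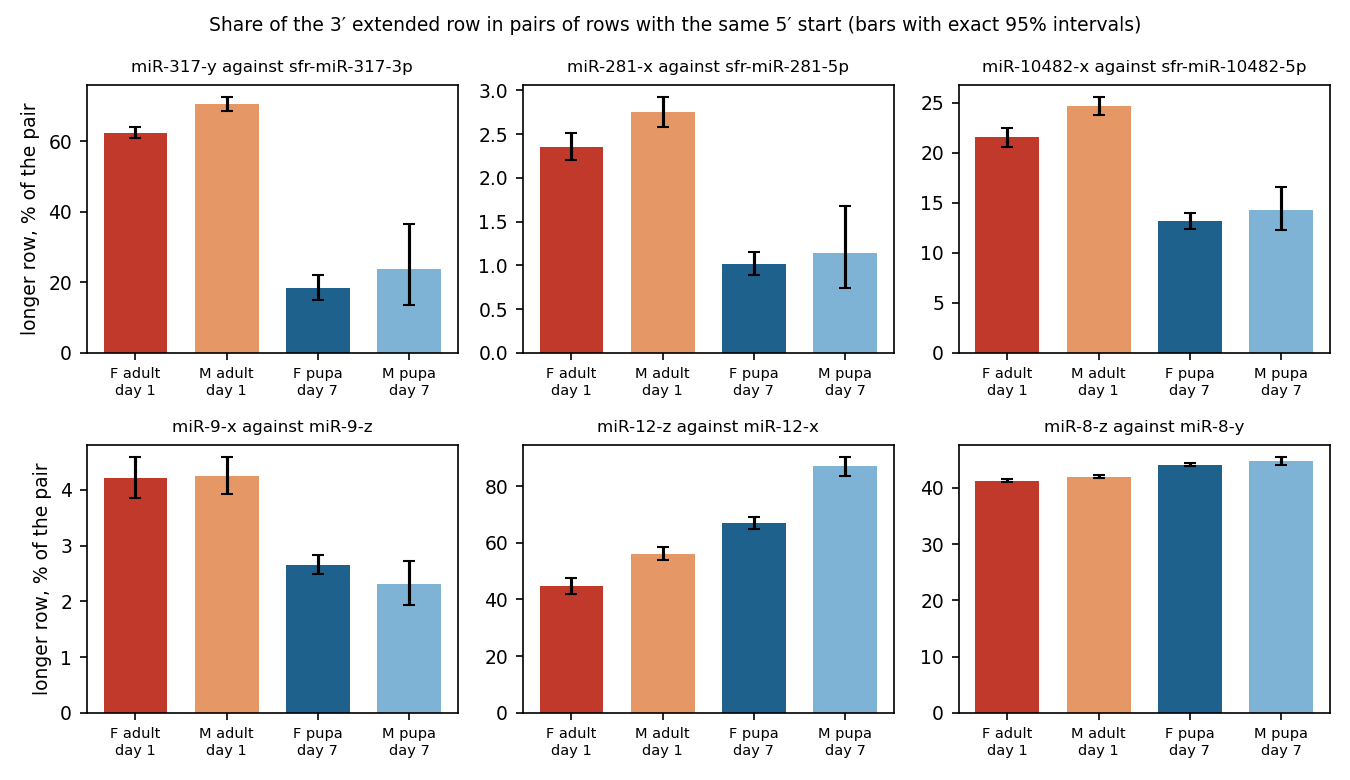
Share of the 3′ extended row in 6 pairs of rows with the same 5′ start, as percent of the reads of the pair, with exact 95% intervals; red and orange bars are the female and male adults of day 1, dark and light blue bars the female and male pupae of day 7. Each panel has its own axis from 0; the longer form has the higher share in adults in the first 4 panels and in pupae in the last 2.

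The arms of a hairpin did not always move together. For miR-317 the 5p arm made up 39.0 and 35.9% of the reads of both species-named arms in the female and male adults, against 4.51 and 2.17% in the female and male pupae, the last being 1 of 46 reads (exact 95% interval 0.0550 to 11.5%). With miR-317-y and miR-317-z counted among the 3p reads, the 5p share was 19.1 and 13.8% in the adults, against 3.65 and 1.67% in the pupae. For miR-14 the 5p share was 49.99 and 48.9% in the adults, against 64.5 and 71.5% in the pupae. For miR-375 it was 69.5 and 80.7% in the adults, against 97.4 and 98.5% in the pupae. For miR-305 it was 95.3 and 96.5% in the adults, against 98.4 and 98.5% in the pupae, where the arms changed by -3.27 (5p) and -1.88 (3p) on the log2 scale.

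Both sexes passed the same step, and their changes were compared between single libraries. Of 147 miRNAs with at least 100 CPM in 1 of the 2 ages in each sex, 18 were at least 2-fold higher in the adult in both sexes (12.2%), 14 were at least 2-fold lower in both (9.52%), and 3 moved 2-fold in opposite directions. Among the 11 called miRNAs of at least 100 CPM, the female and male steps had the same sign and were each over 2-fold. They were called from these same libraries, and rows on which the sexes disagree are less likely to be called. This agreement is therefore no separate support. For the difference of the step between the sexes edgeR called 0 of 344 miRNAs (0%), with 3 at an unadjusted p under 0.05. DESeq2 and limma also called 0. This fit had 2 residual degrees of freedom, against 4 for the eclosion fit. With a single sex term for all pupae and another for all adults, 11 were called, and without the female or male adult of day 4, 2 and 14.

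The list of miRNAs high in males was named from earlier results of these data, so higher male levels in it are no separate finding. Its 4 tested rows were each higher in the male at both ages, miR-375-y on few reads. 2 of them are given here. miR-3338-y stood at 13.6 and 1219 CPM in the female and male adults and at 4.27 and 1410 CPM in the female and male pupae. sfr-miR-375-5p stood at 130 and 5497 CPM in the female and male adults, against 72.9 and 850 CPM in the female and male pupae. sfr-miR-2765-5p was low in the male adult alone, with 599 and 119 CPM in the female and male adults and 529 and 675 CPM in the female and male pupae.

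**Figure D5:**
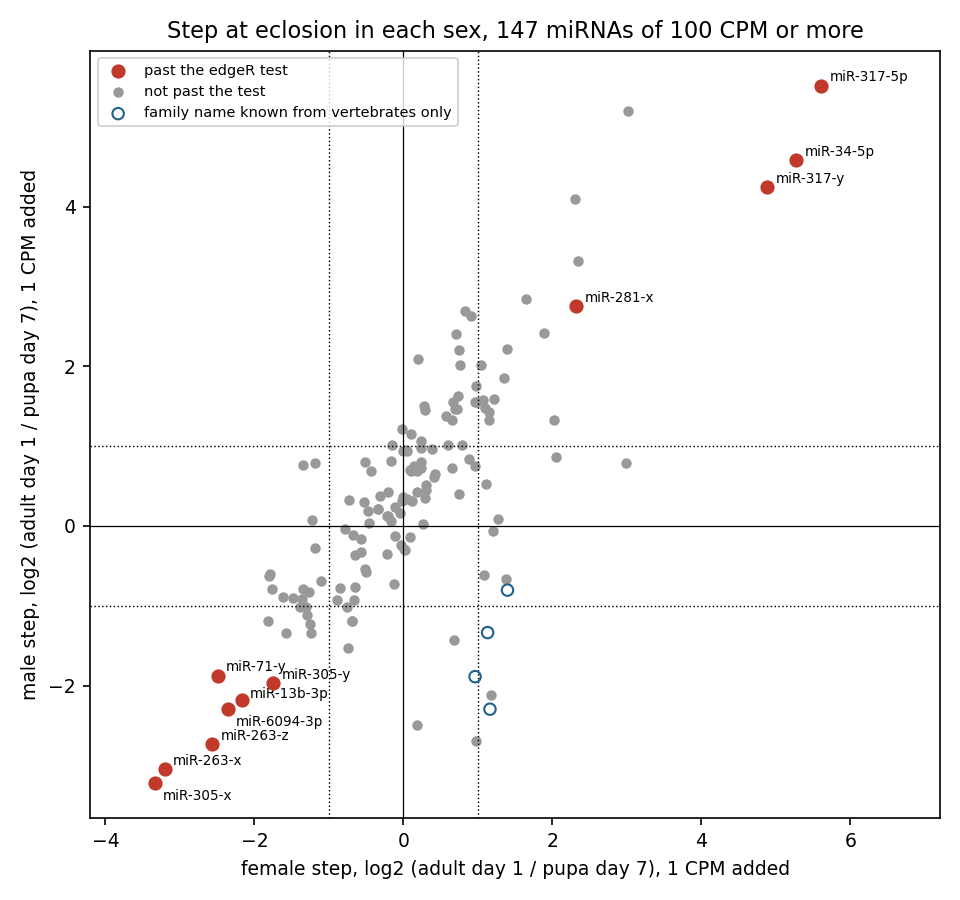
Step at eclosion in females (horizontal axis) and males (vertical axis), as log2 of adult day 1 over pupa day 7 with 1 CPM added, for 147 miRNAs of at least 100 CPM in each sex; dotted lines mark 2-fold. Red points passed edgeR's test, which used these same libraries, and lie far from 0 in both sexes. Open circles mark rows of the list of family names known only from vertebrates, which lie at lower right.

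The 2 remaining calls, miR-4700-x and miR-6941-x, rest on few reads in some libraries. miR-4700-x had no reads in either adult, against 4.27 and 382 CPM in the female and male pupae (edgeR adjusted p = 0.0350). Against 3 counts in the adult of the same sex, it was at least 2.71-fold lower in the female adult and at least 297.2-fold lower in the male adult. The larger bound comes from the male pupa alone, and the fitted log2 change depends on the prior count. miR-6941-x, which was present in pupae of both sexes, had 0.524 and 1.71 CPM in the female and male adults, against 18.6 and 38.2 CPM in the female and male pupae, from 1 and 4 reads against 48 and 15 (log2 change -4.52, edgeR adjusted p = 0.0434). Its female pupa over adult ratio of 35.5 rests on a single adult read, and as adult over pupa the ratio was 0.0281 with an exact 95% counting interval of 0.000698 to 0.165. miR-5119-z, the largest fall among miRNAs of at least 100 CPM that did not pass, had no reads in the adults, against 8.53 and 514 CPM in the female and male pupae (edgeR adjusted p = 0.105).

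miR-4700-x and miR-5119-z were among 5 rows that reached 50 CPM in both the day 4 and the day 7 male pupa and 5 times the highest of the other 8 libraries. Their sequences were 18 to 20 bases long (median 18, against 22 over all rows), and they stood with the 2 shallowest libraries of the 10. A list was kept of rows with family names known only from vertebrates, 26 of them tested. It may be incomplete, and miR-4700-x, miR-6941-x and miR-5119-z were not on it. The listed rows summed to 1719 and 2580 CPM in the female and male adults, against 784 and 7266 CPM in the female and male pupae, so the male pupa was the highest. Of the 26 tested, edgeR called 0, against 3.78% of all tested miRNAs. Of them 23 had a negative log2 change (median -0.46), against 168 of all 344 tested miRNAs. The part of these rows, and of the depth of the male pupa, in the calls was not tested. Between the female libraries alone, adult over pupa, the ratios were 55.2, 42.9, 30.4 and 5.03 for sfr-miR-317-5p, sfr-miR-34-5p, miR-317-y and miR-281-x, values with no test. Without the rows of the vertebrate-named list edgeR called 49 miRNAs, 20 higher and 29 lower, among them all 13. miR-4700-x and miR-6941-x could stay among the calls because they were not on that list. With both shallow male pupae (days 4 and 7) left out it called 0, with 68 at an unadjusted p under 0.05.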

How the data were processed

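Raw counts of the 18 libraries were deposited by the authors in 1 table of 741 named miRNA sequences. Per the labels' protocols, total RNA was extracted with Trizol and libraries were made with a TruSeq small RNA kit and run on a HiSeq instrument; of the aligner, miRNA caller and build, none is named in the sources used here. Rows with the same sequence and counts were merged (660 left); 276 rows have a near copy (at most 2 differences over at least 18 bases).

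Rows averaging 10 or more counts in the 10 pupal and adult libraries were tested with edgeR 4.0.16 in R 4.3.3 (quasi-likelihood, robust, TMM), with terms for age and sex and a Benjamini-Hochberg adjusted p threshold of 0.05. Each SE is the log2 change divided by the square root of F, and is approximate. Sex pairs the libraries of an age; the female deviations of the ages correlated at 0.116 to 0.722 (Pearson). CPM levels use TMM factors computed across all 18 libraries. The difference of the step between sexes was tested with a sex term of its own for each of both ages. Named miRNAs were 12 per direction of at least 100 CPM, with members of the lists. Called miRNAs came first, then the largest log2 changes among rows whose adult and pupal libraries did not overlap. The libraries, lists, tests and named miRNAs were chosen with earlier results of these data known. The scripts were tested on simulated data. Alternatives used DESeq2 1.42.0, limma 3.58.1, other scalings, filters and designs, and left out each library in turn. Python 3.11.15, pandas 2.3.3, numpy 2.4.6, scipy 1.17.1 and matplotlib 3.10.9 were used.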

Additional observations from a re-analysis of the deposited data

Results flagged for a closer look

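3 miRNAs moved at least 2-fold in opposite directions in the 2 sexes. miR-199-x stood at 332 and 309 CPM in the female and male adults, against 148 and 1520 CPM in the female and male pupae, a female step of 1.163 and a male step of -2.30 on the log2 scale. miR-26-x stood at 208 and 305 CPM in the adults, against 94.6 and 771 CPM in the pupae, with steps of 1.131 and -1.34. miR-125-x stood at 193 and 186 CPM in the adults, against 85.3 and 807 CPM in the pupae, with steps of 1.17 and -2.11. In each case the male pupa, the shallowest library, was the highest of the 4, and in females the adult was higher. miR-199-x and miR-26-x are on the list of family names known only from vertebrates, whose summed level was highest in the male pupa. miR-125-x is not on that list. The tested differences of the step were 3.33, 2.34 and 3.16 on the log2 scale, and none passed (edgeR adjusted p = 0.997 for each). Without the male adult of day 4, miR-26-x (difference 2.61, edgeR adjusted p = 0.0306) and miR-125-x (3.43, adjusted p = 0.00171) did pass, and miR-199-x did not. Their cause was not tested.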

How the results depend on the processing

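The main fit called 13 miRNAs, 11 of the 24 named (for which calls were taken first) and 11 in the lists. With DESeq2's size factors these were 32, 16 and 25 (14 higher, 18 lower), and with library totals alone 38, 17 and 27 (22 higher, 16 lower); the median log2 change of all miRNAs was 0.039, -0.11 and 0.14 under the 3 scalings. The DESeq2 Wald test called 75, 22 and 47, limma 25, 17 and 20, counts thinned to 418883 per library 34, 17 and 25, and the table without the rows of the vertebrate-named list 49, 18 and 33. With the 4 libraries alone, a replicate block (sex term) gave 32, 19 and 19, and no replicate block 4, 4 and 4; without the block in the 10 libraries 12, 10 and 10 were called. A 2-fold minimum (glmTreat) left 5. Leaving out 1 library gave 0 to 70, 0 to 21 and 0 to 46. With both shallow male pupae left out, chosen after seeing the data, all 3 counts were 0, with 68 miRNAs at an unadjusted p under 0.05 in edgeR. No filter and unmerged rows gave 16 and 13 calls. The 32 steps shared by the sexes became 12 at 4-fold, 13 at 1000 CPM and 61 at 10 CPM. The sex difference of the step, 0 calls, gave 11 with 1 sex term per stage and 0 to 14 without 1 library (2 and 14 without the female or male adult of day 4). For single miRNAs 0 called values reversed, 90 lost the call and 213 gained it. The causes were not tested. With 1 library per sex and age, and 7.64 CPM for 3 counts in the male pupa, low pupal levels are imprecise.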
